A study of Homo sapiens with 9 samples.

Results

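The genes of the synaptic vesicle and of its membrane fusion machinery were followed in SH-Sy5y cells that received a miR-1229-3p mimic. Members were chosen by symbol alone: synaptotagmins (SYT), synapsins (SYN), synaptophysin (SYP), SV2 proteins, syntaxins (STX), syntaxin-binding proteins (STXBP), VAMPs, SNAP proteins, complexins (CPLX), RIM proteins (RIMS) and Munc13 proteins (UNC13A, UNC13B, UNC13D). Of 14943 genes in the deposited count table, 62 carried such a symbol, and all 62 were tested. The same rule takes 70 protein-coding symbols of the GENCODE 44 annotation. The 8 others, CPLX3, CPLX4, STX11, STX19, STXBP6, SYT6, SYT10 and VAMP8, had no row among the genes tested.

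A synaptic vesicle releases its transmitter when a VAMP on the vesicle zips together with a syntaxin and a SNAP protein on the plasma membrane, forming the SNARE complex. Munc13 proteins prepare this complex, RIM proteins hold the vesicle at the active zone, complexins clamp the partly zipped complex, and synaptotagmins trigger fusion when calcium enters. Many syntaxins, VAMPs and SNAP proteins instead serve the Golgi, endosomes or autophagosomes of every cell, so the symbol rule mixes neuronal and housekeeping genes. SNAP91, a clathrin adaptor for vesicle retrieval, belongs to the SNAP group by its symbol only. UNC13D acts in granule release of immune cells.

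The SH-Sy5y line was derived from a human neuroblastoma and grows as dividing cells. It was transfected for 48 h, and polyadenylated RNA was sequenced from 3 libraries per group. Ctrl. cells received 40 pmol of a negative control oligonucleotide, and 10 nM cells 20 pmol of the mimic with 20 pmol of that control. The 20 nM cells received 40 pmol of the mimic with 0 pmol of the control. In every comparison and in the trend, the control oligonucleotide thus fell as the mimic rose. The parts of the mimic and the control oligonucleotide cannot be told apart. RNA of a pair of wells was pooled where possible, and the labels do not say that the replicates were separate cultures. The p-values thus measure the spread between these libraries that the terms of each fit leave unexplained. Both mimic groups were compared with the same Ctrl. libraries.

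Library totals ran from 17.4 M to 28.2 M counts. The library of 20 nM replicate 3 stood apart: on the first principal component it lay at 47.4, against -17.1 to 7.72 in the other 8, and it differed from the other 20 nM libraries by a chi-square of 37.3 and 47 per degree of freedom, against 4.78 to 8.49 for all other replicate pairs. Values without it are therefore given beside results of the members. All 11 noradrenergic neuroblastoma markers had a row, and their summed level was 6294 to 6498 CPM (counts per M counts) in Ctrl., 6700 to 7342 at 10 nM and 6488 to 7964 at 20 nM. Of 7 mesenchymal markers 6 had a row (209.8 to 277 CPM in Ctrl., 206.6 to 282.1 at 10 nM, 183.3 to 261 at 20 nM). GFAP and AQP4 had none among 6 glial markers, and the 3 with a row summed to 6.405 to 7.406 CPM in Ctrl., 6.744 to 7.544 at 10 nM and 5.65 to 7.091 at 20 nM. SLC17A6 and GAD2 had none among 6 markers of mature glutamatergic or GABAergic neurons, and the other 4 summed to 6.644 to 7.622, 5.057 to 6.08 and 5.147 to 6.604 CPM in the same order. The part of these differences in the results below was not tested.

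MicroRNAs act through their seed, bases 2 to 8 from the 5′ end, which pairs with the 3′ untranslated region (UTR) of a messenger RNA. The mature sequence is shown first with its seed in capitals, because it sets which letters were searched in the members. Below it are sites in members that changed. Capitals there mark the letters searched, which pair with seed bases and, in CPLX2 and SYT1, include a last A that lies opposite base 1 and does not pair with the seed. CPLX2 holds the longest kind of match. SYT1 holds a shorter one, in its longest 3′ UTR but not in that of its canonical transcript. SYT4, VAMP2 and SV2A, which also fell, hold only the 6-letter match. STXBP5 and, in the trend alone, SYN3 rose, and both hold a 7-letter match that is not shown here.
miR-1229-3p: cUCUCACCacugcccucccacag
CPLX2 site: aagccccaagcctttGGTGAGAA
SYT1 site: taatttccaaatgcatGTGAGAA
SYT4 site: gaaggaagcatggtgtGTGAGAc
VAMP2 site: ccacaattgatctcttGTGAGAg
SV2A site: agaggcctcctctggaGTGAGAg

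The microRNA sequence is from RefSeq (GRCh38.p14, chr5:179798278-179798300, minus strand, 23 bases). The sites lie in 3′ UTR exons of GENCODE 44 on the same build: chr5:175880992-175881014 (CPLX2, plus strand), chr12:79447402-79447424 (SYT1, plus), chr18:43267976-43267998 (SYT4, minus), chr17:8159776-8159798 (VAMP2, minus) and chr1:149904091-149904113 (SV2A, minus). The SYT4 match begins at base 2359 of a 3′ UTR of 2449 bases, near its end. The SYT1 match begins at base 152 of 4725.

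Levels between genes were compared as CPM per kilobase of the canonical transcript (CPM per kb) in Ctrl. cells. SYT4, an atypical synaptotagmin of secretory vesicles that binds calcium poorly, had the highest level, 104.7 CPM per kb (range 100.8 to 108.4, n = 3). UNC13D followed at 81.39 (78.05 to 86.24) and STX10, a syntaxin of the Golgi and endosomes, at 65.24 (64.34 to 66.58), and these ranges did not overlap. SYT11 at 45.16 (41.98 to 50.86) and the vesicle glycoprotein gene SV2A at 42.87 (40.85 to 44.46) came next, with ranges that overlapped. Of 61 pairs of neighbours in this order, 22 had Ctrl. ranges that did not overlap.

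The neuronal fusion SNAREs ranked 7 (SNAP25), 10 (VAMP2) and 14 (STX1A) of the 62 by level per kb. SNAP25, the SNAP protein of the neuronal plasma membrane, stood at 32.05 CPM per kb, the synaptic VAMP2 at 25.08 and the synaptic syntaxin STX1A at 20.42. The housekeeping VAMP3 was at 31.73 and CPLX1 at 23.06 CPM per kb. Synapsins, which tether vesicles in reserve, were lower, with SYN1 at 7.046, SYN2 at 4.999 and SYN3 at 0.6067 CPM per kb. SYT1, the sensor of fast release, was at 16.28 and SYT2, which serves the same role in other neurons, at 0.1102 CPM per kb. SV2B was lowest of all at 0.03769. The order depends on the length used: per kilobase of all annotated exons SYT4 stayed first, but SNAP25 went from rank 7 to rank 37, and 7 of the 62 genes kept their rank.

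**Figure D1:**
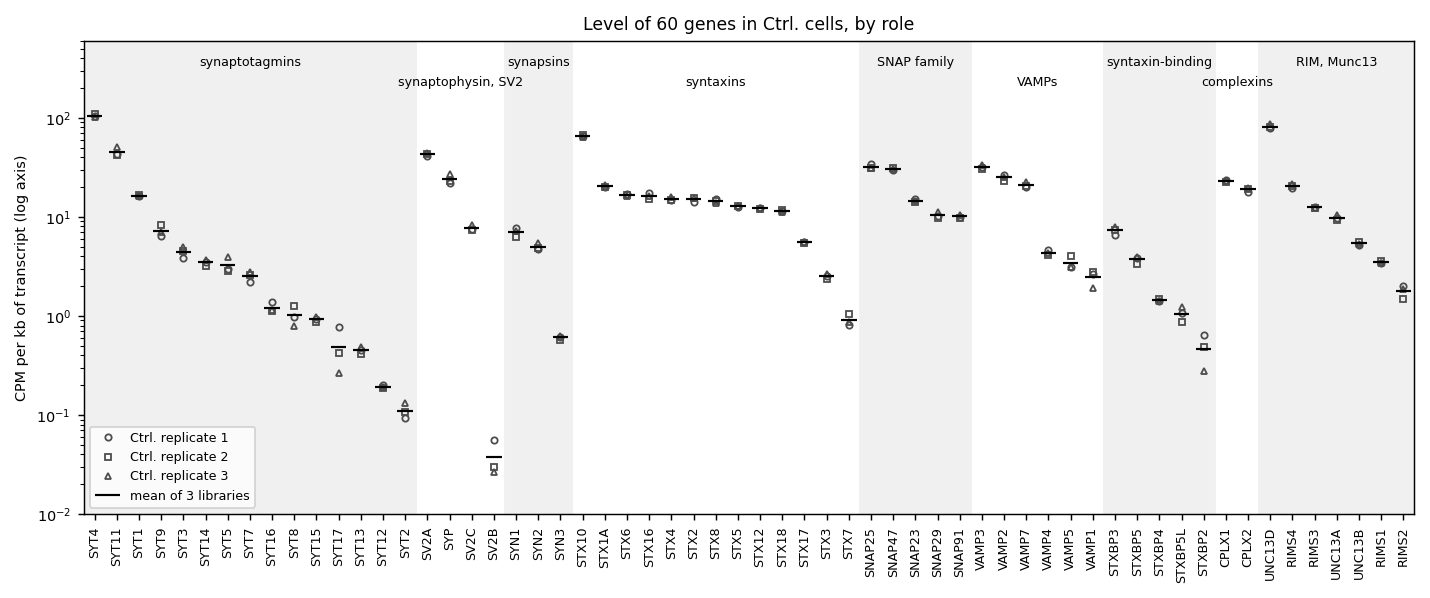
Level of 60 of the 62 genes in Ctrl. cells, as CPM per kb of canonical transcript on a log axis, grouped by role. Symbols are the 3 Ctrl. libraries and the bar their mean; SYT4 is highest at 104.7 and SV2B lowest at 0.03769.

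At 10 nM, 1 of the 62 genes passed the quasi-likelihood test of edgeR (adjusted p under 0.05 after Benjamini-Hochberg correction over all genes, with 1 surrogate variable, an estimated term for unexplained variation between libraries). It was SYT4, which fell (1.61% of members against 0.649% of all genes, and 0.428% of all genes lower). No member rose by edgeR or by DESeq2, and 6 of 62 had an unadjusted edgeR p under 0.05 (9.68% against 13.9% of all genes). At 20 nM 13 genes were called, 21% of members against 13.9% of all genes. Of these 9 fell, 14.5% against 6.08% of all genes, and 4 rose, 6.45% against 7.8%. The median log2 fold change at 20 nM was -0.03 over the members and -0.00 over all genes.

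A trend over the concentration (0, 10 and 20 nM, fold change per 20 nM, 2 surrogate variables) also called 13 genes, 21% against 17.5% of all genes. In this trend 8 fell (12.9% against 7.69%) and 5 rose (8.06% against 9.84%). The trend and the 20 nM comparison shared 9 genes. Together 17 members were called in at least 1 comparison. Between 20 nM and 10 nM edgeR called 0 members, against 2.79% of all genes. There 13 members had an unadjusted edgeR p under 0.05 (21% against 14.9% of all genes). DESeq2 called RIMS3 and SV2A (3.23% against 3.16% of all genes).

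Without 20 nM replicate 3 and with the number of surrogate variables kept, edgeR called 1 member at 10 nM (1.61% against 1.07% of all genes), 15 at 20 nM (24.2% against 17.8%), 1 between 20 nM and 10 nM (1.61% against 3.09%) and 18 in the trend (29% against 18.5%). Those 15 hold 12 of the 13 genes called with it, and the 18 hold 12 of the 13. When that number was estimated again without this library, it went from 1 to 2 in the group fit, and 23 members were called at 20 nM (37.1% against 29.2%), 2 at 10 nM (3.23% against 8.82%) and 9 between the mimic groups (14.5% against 10%). Values given below without 20 nM replicate 3 keep the number of surrogate variables.

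With a block for the replicate number and no surrogate variable, 0 members were called at 10 nM (0.0201% of all genes), 8 at 20 nM (12.9% against 13.6%) and 10 in the trend (16.1% against 16.4%), so these shares lay below those of all genes. Of the 8 and 10, 4 and 6 were shared with the calls above. Without surrogate variables only SYT4 and SYN2 were called, both at 20 nM and in the trend (3.23% of members, against 6.38% and 8.27% of all genes).

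**Figure D2:**
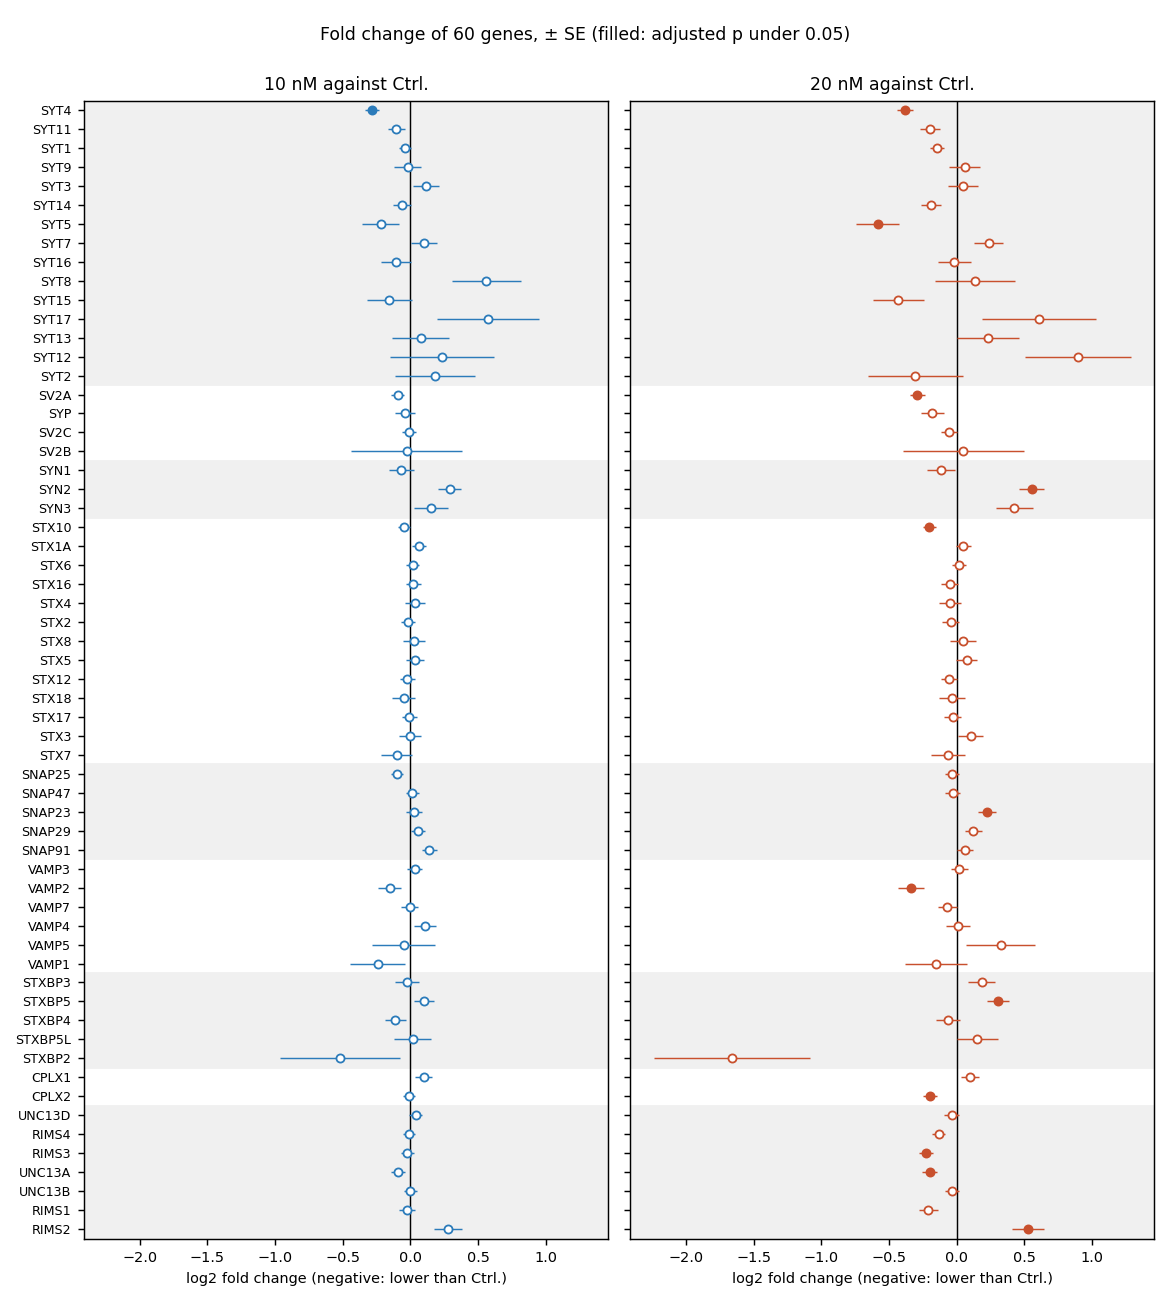
log2 fold change of 60 of the 62 genes against Ctrl. at 10 nM (left) and 20 nM (right), with bars of 1 SE, in the order of the level plot; filled points have an adjusted p under 0.05. At 10 nM 1 point is filled (SYT4), and at 20 nM 12 are, 8 of them left of 0.

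Among the 15 synaptotagmins, SYT4 and SYT5 fell at 20 nM, where 6.08% of all genes fell, and both with SYT1 and SYT14 fell in the trend, where 7.69% did. SYT4 (ENSG00000132872, chr18:43267892-43277535) had CPM values of 413, 426 and 397 in Ctrl. (replicates 1 to 3 here and in every triplet that follows), of 328, 355 and 312 with 10 nM and of 309, 315 and 255 with 20 nM. Every mimic library lay below every Ctrl. library, whereas the 10 nM and 20 nM ranges overlapped. Mean CPM was 412 ± 14.8, 332 ± 21.8 and 293 ± 33.4 (SD, n = 3), so it fell by 19.5% at 10 nM and by 28.9% at 20 nM. The log2 fold change was -0.28 ± 0.05 (SE) at 10 nM with an edgeR adjusted p of 0.0257, and -0.38 ± 0.06 at 20 nM with 0.00102. The 10 nM call was lost with the replicate block, at an edgeR adjusted p of 0.157, and when any 1 Ctrl. library, 10 nM replicate 1 or 10 nM replicate 3 was left out. Leaving out 20 nM replicate 3 gave -0.40 ± 0.04 at 20 nM with an edgeR adjusted p of 0.000102.

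The make-up of the synaptotagmin family differed accordingly. SYT4 held 54.7% ± 2.44 (SD, n = 3) of the summed CPM per kb of the 15 synaptotagmins in Ctrl., 50% ± 2.17 at 10 nM and 47.7% ± 3.76 at 20 nM. SYT11, a synaptotagmin without calcium binding, held 23.6% ± 2.31, 25.5% ± 2.2 and 27% ± 3.07. SYT11 itself had 221, 218 and 264 CPM in Ctrl. and 207, 210 and 237 at 20 nM, and its log2 fold change of -0.20 at 20 nM had an edgeR adjusted p of 0.101 (0.0367 without 20 nM replicate 3).

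SYT5, a calcium sensor of dense-core vesicles, had 10.9, 10.4 and 14.3 CPM in Ctrl., 9.67, 9.29 and 13.3 at 10 nM and 7.91, 8.9 and 11.4 at 20 nM. Each mimic library was below the Ctrl. library of the same number, but the groups overlapped, since replicate 3 was highest in each. Its log2 fold change at 20 nM was -0.58 ± 0.16 (edgeR adjusted p 0.028), -0.50 without 20 nM replicate 3 and -0.34 with the replicate block (edgeR adjusted p 0.0406). The call was lost without 20 nM replicate 1, 20 nM replicate 2 or Ctrl. replicate 3, and the adjusted p reached 0.273 without a surrogate variable.

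SYT1 and the atypical SYT14 fell in the trend only. SYT1 had 75.6, 77.5 and 76.7 CPM in Ctrl., 76.7, 73.6 and 68.1 at 10 nM and 69.6, 66.5 and 55.5 at 20 nM. All 20 nM libraries were below all Ctrl. libraries, with replicate 3 the lowest. Its trend log2 fold change was -0.19 ± 0.05 (edgeR adjusted p 0.0138; 0.0426 without 20 nM replicate 3), while the 20 nM comparison gave -0.14 with an adjusted p of 0.0817 and, with the block, -0.27 with 0.0386. SYT14 had 42.4, 38.7 and 44.5 CPM in Ctrl. and 37.3, 34.6 and 23.5 at 20 nM, again with no overlap, and a trend of -0.27 ± 0.07 (edgeR adjusted p 0.0227, 0.047 without 20 nM replicate 3 and 0.0515 with the block). Both trend calls were lost without 20 nM replicate 2 or Ctrl. replicate 3. The other 11 synaptotagmins passed in no comparison. SYT7, a sensor of slow release, had 16, 18.7 and 19.9 CPM in Ctrl. and 19.6, 25.1 and 28.2 at 20 nM, which overlap; its log2 fold change at 20 nM was 0.24 (edgeR adjusted p 0.162), and with the block 0.41 (0.0131).

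Of the 4 vesicle membrane genes, SV2A fell at 20 nM and in the trend, where 6.08% and 7.69% of all genes fell. SV2A (ENSG00000159164, chr1:149903318-149917844) had 179, 190 and 195 CPM in Ctrl., 174, 174 and 199 at 10 nM and 158, 157 and 217 at 20 nM. Replicates 1 and 2 at 20 nM were below every Ctrl. library and replicate 3 above every one. The log2 fold change at 20 nM was -0.29 ± 0.05 (edgeR adjusted p 0.00331), and -0.26 ± 0.04 without 20 nM replicate 3 (0.00207), but -0.08 ± 0.12 without a surrogate variable and -0.10 ± 0.08 with the block (edgeR adjusted p 0.443). The synaptophysin gene SYP had 52.9, 56.1 and 65.1 CPM in Ctrl. and 51.9, 55.6 and 75.8 at 20 nM. It was highest in replicate 3 of every group, and its fold change of -0.18 at 20 nM had an edgeR adjusted p of 0.204.

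Of the 3 synapsins, SYN2 rose at 20 nM and in the trend, SYN3 rose in the trend alone, and SYN1, the most abundant, passed in no comparison. Over all genes 7.8% rose at 20 nM and 9.84% in the trend. SYN2 (ENSG00000157152, chr3:12004388-12192032) had 15.7, 16.2 and 17.9 CPM in Ctrl., 19.7, 19.6 and 21.1 at 10 nM and 26.1, 22.6 and 21.9 at 20 nM. None of the 3 ranges overlapped another. Mean CPM was 16.6 ± 1.17, 20.1 ± 0.83 and 23.5 ± 2.22 (SD, n = 3), 41.8% higher at 20 nM than in Ctrl. The model gave a log2 fold change of 0.29 ± 0.08 for 10 nM (edgeR adjusted p 0.147), of 0.55 ± 0.09 for 20 nM (0.00186) and of 0.55 ± 0.08 without 20 nM replicate 3. SYN3 had 4.84, 4.49 and 4.99 CPM in Ctrl., 5.37, 5.07 and 5.31 at 10 nM and 6.49, 6.28 and 5.51 at 20 nM, also in 3 ranges that did not overlap, with a trend of 0.41 ± 0.13 (edgeR adjusted p 0.0432, and 0.0702 with the block). This call held in 7 of 20 alternatives, which are not all distinct fits. Of the 9 libraries only 20 nM replicate 3 could be left out without losing it. SYN1 had 20.1 to 24.6 CPM in Ctrl. and 20 to 24.8 at 20 nM, with a log2 fold change of -0.12 at 20 nM. SYN2 thus held 39.6% ± 2.87 (SD, n = 3) of the summed CPM per kb of the 3 synapsins in Ctrl., 44.7% ± 1.94 at 10 nM and 48% ± 3.6 at 20 nM, and SYN1 55.6% ± 2.93, 50.4% ± 1.97 and 46.8% ± 4.07.

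Among the 25 SNARE genes by symbol (14 syntaxins, 5 SNAP genes and 6 VAMPs), STX10 and VAMP2 fell and SNAP23 rose at 20 nM. Over all genes 6.08% fell and 7.8% rose there. VAMP2, the vesicle SNARE of transmitter release (ENSG00000220205, chr17:8159149-8163546), had 56.8, 49.5 and 53.7 CPM in Ctrl., 53.2, 43.7 and 48.7 at 10 nM and 44.7, 39 and 49.6 at 20 nM. Each mimic library was below the Ctrl. library of its number, and the groups overlapped. The log2 fold change at 20 nM was -0.34 ± 0.10 (edgeR adjusted p 0.0383), -0.35 without 20 nM replicate 3 (0.0155) and -0.26 ± 0.07 with the block (0.0381). The call was lost without Ctrl. replicate 1, Ctrl. replicate 3 or 20 nM replicate 2, where the adjusted p was highest at 0.245. Of the 31-base words in its transcripts 17.84% also occur in another annotated gene, so part of its counts may be assigned elsewhere.

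STX10 had 84.5, 86.8 and 83.9 CPM in Ctrl., 82.4, 84.9 and 91 at 10 nM and 72.9, 79.6 and 115 at 20 nM. Here 20 nM replicate 3 was the highest library and the other 2 the lowest of the 9. Its log2 fold change of -0.20 ± 0.05 (edgeR adjusted p 0.0169) was -0.16 without that library, where the call was lost (0.0554), and 0.07 ± 0.14 without a surrogate variable and 0.05 ± 0.12 with the block. Leaving out 20 nM replicate 1 or 2 lost the call as well. SNAP23, the SNAP protein of most non-neuronal cells, had 35, 33 and 33.1 CPM in Ctrl. and 39.8, 37.3 and 33.3 at 20 nM, with a log2 fold change of 0.22 ± 0.07 (edgeR adjusted p 0.0444; 0.226 with the block). Of the 9 libraries, only 10 nM replicate 3 and 20 nM replicate 3 could be left out without losing this call. Its counts are uncertain, because 61.14% of its 31-base words also occur in other genes, 57.37% in a single gene annotated on the opposite strand, and use of strand in counting was not stated.

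The plasma membrane SNAREs SNAP25 and STX1A passed in no comparison. SNAP25 had 69.5, 63.5 and 64.4 CPM in Ctrl., 61.9, 60.1 and 58.5 at 10 nM and 65.1, 61.7 and 53 at 20 nM, with a log2 fold change of -0.10 ± 0.05 at 10 nM and -0.03 ± 0.05 at 20 nM (edgeR adjusted p 0.352 and 0.765). STX1A had 42.2 to 44.1 CPM in Ctrl. and 45 to 51.3 at 20 nM, with a log2 fold change of 0.05 (0.611). Of the 14 syntaxins, most of them of the Golgi, endosomes and other membranes of every cell, 1 was called, STX10. That call was at 20 nM, where 13.9% of all genes were called. The median log2 fold change of the 14 syntaxins at 20 nM was -0.04.

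Genes that bind the SNAREs moved both ways. STXBP5, or tomosyn, which occupies syntaxin in place of VAMP and so holds back fusion, had 36, 31.1 and 36.8 CPM in Ctrl., 37.9, 34.7 and 36.3 at 10 nM and 44.7, 39.7 and 33.6 at 20 nM, in overlapping groups. STXBP5 rose at 20 nM by 0.31 ± 0.08 (edgeR adjusted p 0.0225), by 0.28 ± 0.08 without 20 nM replicate 3, and with the block gave 0.18 (0.227). The call was lost without 20 nM replicate 1 or Ctrl. replicate 2.

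Of the complexins, CPLX2 fell at 20 nM and CPLX1 rose in the trend, where 6.08% of all genes fell and 9.84% rose, respectively. CPLX2 had 82.2, 87.5 and 90.9 CPM in Ctrl. and 74, 81.1 and 99 at 20 nM, overlapping, with a log2 fold change of -0.20 ± 0.05 (edgeR adjusted p 0.0246), -0.17 without 20 nM replicate 3 (0.0458) and -0.04 with the block (0.707). This call was lost without 20 nM replicate 1, Ctrl. replicate 2 or Ctrl. replicate 3. CPLX1 had 49.7, 47.7 and 48.7 CPM in Ctrl., 54, 50.3 and 59 at 10 nM and 50.3, 57.5 and 80.2 at 20 nM, every mimic library above every Ctrl. library. It rose in the trend by 0.20 ± 0.06 (edgeR adjusted p 0.0466), a call that held in 5 of 20 alternatives, not all of them distinct fits. It was lost when any library but 20 nM replicate 1 or 10 nM replicate 3 was left out (0.13 and adjusted p 0.193 without 20 nM replicate 3) and with the block (0.0516). STXBP2 had the lowest fitted fold change of any member, -1.66 ± 0.58 at 20 nM (edgeR adjusted p 0.0767), at a level of 0.521 to 1.2 CPM in Ctrl. and 0.215 to 0.446 at 20 nM, and 85.98% of its 31-base words occur in an overlapping gene on the same strand.

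Among the 7 active zone genes, RIMS3 and UNC13A fell and RIMS2 rose at 20 nM, where 6.08% of all genes fell and 7.8% rose. RIMS3, a short RIM protein, had 91.3, 90.2 and 89.6 CPM in Ctrl., 84.7, 91.1 and 95.2 at 10 nM and 74.9, 82.3 and 88.1 at 20 nM, with all 20 nM libraries below all Ctrl. libraries. Its log2 fold change was -0.23 ± 0.05 (edgeR adjusted p 0.0155), -0.20 without 20 nM replicate 3 and -0.15 with the block (0.142), and the call was lost without 20 nM replicate 1. RIMS2, a scaffold that links vesicles to calcium channels, had 15.6, 11.4 and 14.3 CPM in Ctrl., 16.4, 16.5 and 16.3 at 10 nM and 21.1, 18.1 and 15.4 at 20 nM. All 10 nM libraries were above Ctrl., while 20 nM replicate 3 lay within the Ctrl. range.

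The log2 fold change of RIMS2 for 10 nM was 0.28 ± 0.11 (edgeR adjusted p 0.274) and for 20 nM 0.53 ± 0.12 (0.00987), 0.49 ± 0.12 without 20 nM replicate 3, and 0.40 ± 0.12 with the block (0.0562), and the 20 nM call was lost without 20 nM replicate 1. UNC13A, the main Munc13 of excitatory synapses, had 96.4, 93.8 and 104 CPM in Ctrl. and 88.1, 87.6 and 131 at 20 nM. Its log2 fold change of -0.20 ± 0.06 (edgeR adjusted p 0.0368) was -0.16 without 20 nM replicate 3 (0.0217), but 0.06 ± 0.14 without a surrogate variable and 0.04 ± 0.09 with the block, and the call was lost without 20 nM replicate 1, 20 nM replicate 2 or Ctrl. replicate 3. RIMS1 had 27.2 to 28.3 CPM in Ctrl. and 23.8 to 26.6 at 20 nM, without overlap, and a log2 fold change of -0.21 ± 0.07 (edgeR adjusted p 0.06). UNC13D, high in level, had 318, 326 and 352 CPM in Ctrl. and 324, 341 and 432 at 20 nM (-0.04, adjusted p 0.723).

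**Figure D3:**
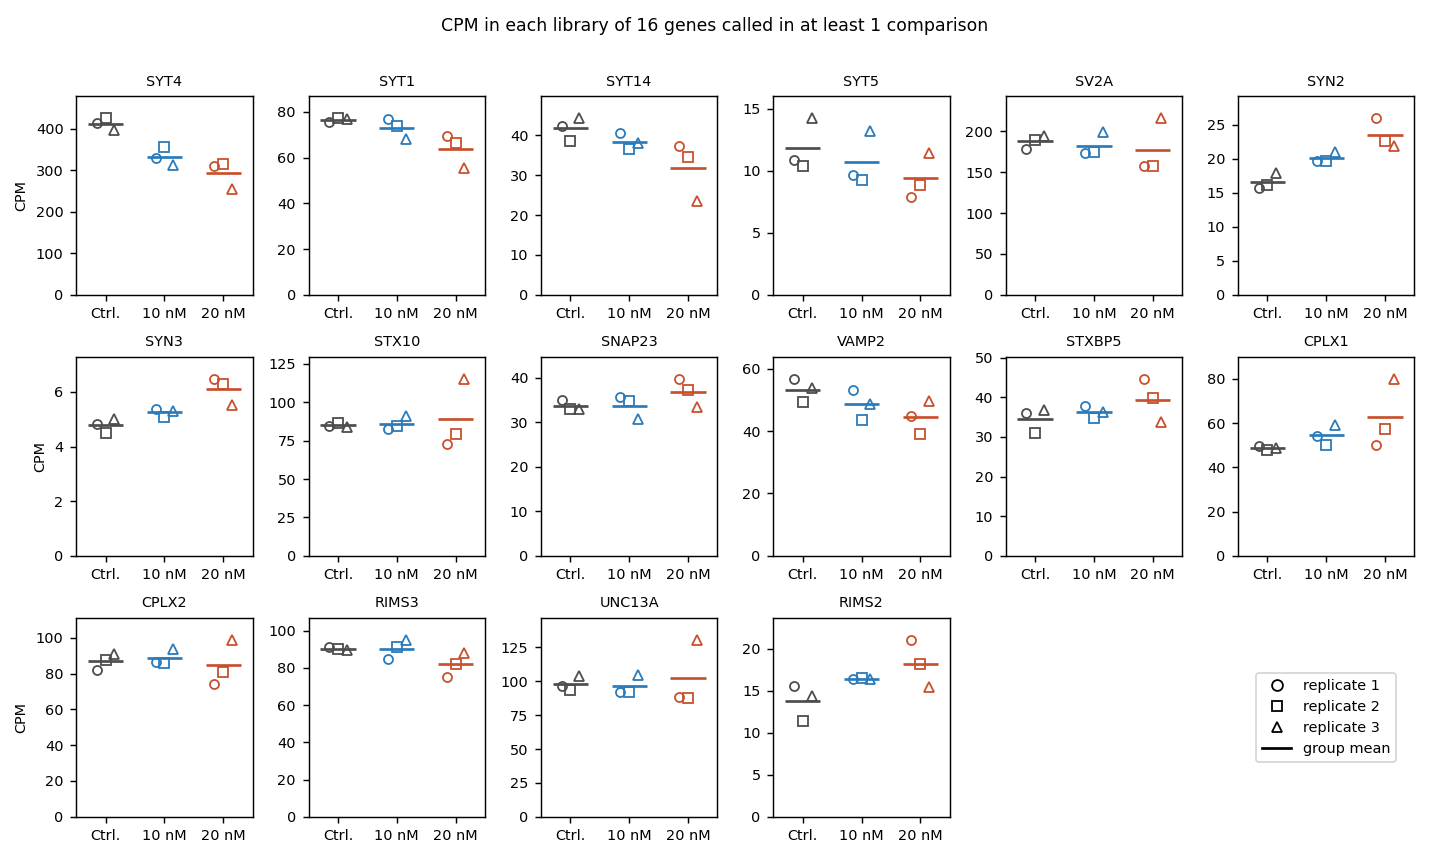
CPM of each library for 16 of the 17 genes called in at least 1 comparison, with axes from 0; symbols mark the replicate number and lines the group mean. SYT4 falls from 412 to 293 on average and SYN2 rises from 16.6 to 23.5, whereas 20 nM replicate 3 lies above every Ctrl. library in SV2A, STX10, CPLX2 and UNC13A.

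The 9 genes that fell at 20 nM were chosen for being called lower, so low values in 20 nM libraries partly follow from that choice. In all 9, 20 nM replicates 1 and 2 were below every Ctrl. library. In 5 of the 9, CPLX2, STX10, SV2A and UNC13A included, 20 nM replicate 3 was above every Ctrl. library. None of these 5 was called with all libraries and no surrogate variable. The share of all genes with either pattern was not counted. Without a surrogate variable 7 of the 9 kept a negative log2 fold change, and STX10 and UNC13A turned positive. SYT4 and SYN2 were called at 20 nM and in the trend under all 20 alternative settings. The edgeR or DESeq2 adjusted p was at most 0.00818 for SYT4 and 0.0322 for SYN2. These settings are not all distinct, since in a given comparison some repeat the fit given above or each other. No other member was called in all 20.

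**Figure D4:**
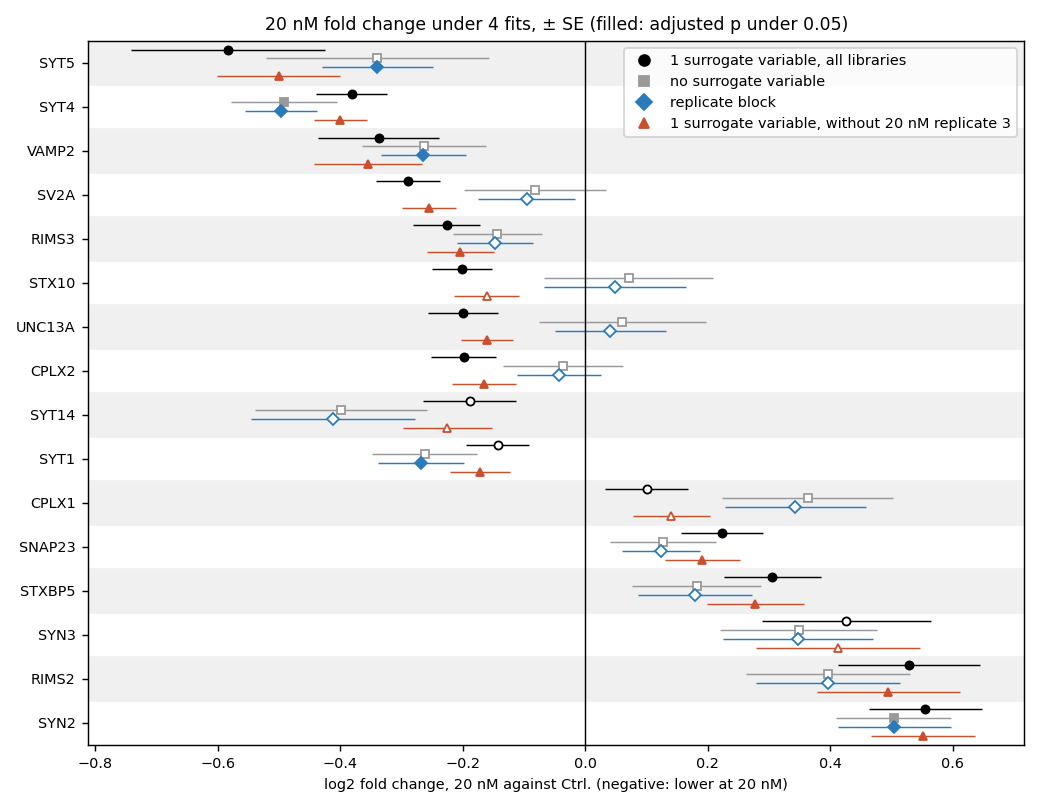
log2 fold change at 20 nM with bars of 1 SE for 16 of the 17 called genes under 4 fits; filled symbols have an adjusted p under 0.05. SYT4 and SYN2 are filled under every fit, while STX10 (0.07) and UNC13A (0.06) lie right of 0 without a surrogate variable.

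Read without any model, 5 members had all 10 nM libraries above all Ctrl. libraries in CPM (8.06%, against 10.1% of all genes), namely CPLX1, RIMS2, SNAP91, SYN2 and SYN3. All 10 nM libraries were below Ctrl. in 4 (6.45% against 9.9%), SNAP25, STX12, STXBP4 and SYT4. At 20 nM 7 members lay wholly above Ctrl. (11.3% against 15.2%): CPLX1, SNAP29, STX1A, STX3, STX5, SYN2 and SYN3. A further 10 lay wholly below (16.1% against 13.7%), among them RIMS1, RIMS3, STX12, STXBP2, STXBP4, SYT1, SYT14, SYT15 and SYT4. These shares were near those of all genes. SYT15 shares 95.42% of its 31-base words with other genes, chiefly its copy SYT15B, so its counts cannot be assigned with certainty. In all, 11 members share more than 15% of these words with other genes, also SNAP29, STX16, STX18, SYN1, SYT2, SYT3 and SYT17.

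Matches to the seed were counted in the longest 3′ UTR of each gene, on its sense strand. The letters searched were GGTGAGAA (8-mer), GGTGAGA and GTGAGAA (7-mers, both contained in the 8-mer) and GTGAGA (6-mer, contained in all). A 7-mer or 8-mer was present in 19 of 62 members (30.6%), against 22.6% of 13777 genes with a 3′ UTR of at least 50 bases. Members also had longer 3′ UTRs, with a median of 2355.5 bases against 1552. An 8-mer was present in 2 members, CPLX2 among them (3.23% against 4.61%). CPLX2 holds 3 matches of 7 or 8 letters and STXBP4 holds 4.

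Of the 19 members with a 7-mer or 8-mer, 3 fell at 20 nM (CPLX2 and UNC13A among them) and 1 rose (STXBP5). Of 17 with the 6-mer alone, 4 fell (SYT4, SV2A, RIMS3, VAMP2) and 0 rose by edgeR. Of 26 with no match, 2 fell (SYT5, STX10) and 3 rose (SYN2, RIMS2, SNAP23). Among all genes tested, 10.5% of those with a 7-mer or 8-mer fell at 20 nM, 6.54% of those with the 6-mer alone and 4.58% of those with no match. In the same order 8.06%, 9.77% and 8.13% of all genes in these classes rose. Median log2 fold changes of the members in these classes were -0.06, -0.05 and 0.03, against -0.02, 0.01 and 0.01 over all genes. STXBP4, with its 4 matches, had 22.2 to 23.2 CPM in Ctrl., 19.3 to 22.1 at 10 nM and 18.2 to 22.1 at 20 nM, and a log2 fold change of -0.06 at 20 nM (edgeR adjusted p 0.691). A match is a description of the letters and does not show binding.

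**Figure D5:**
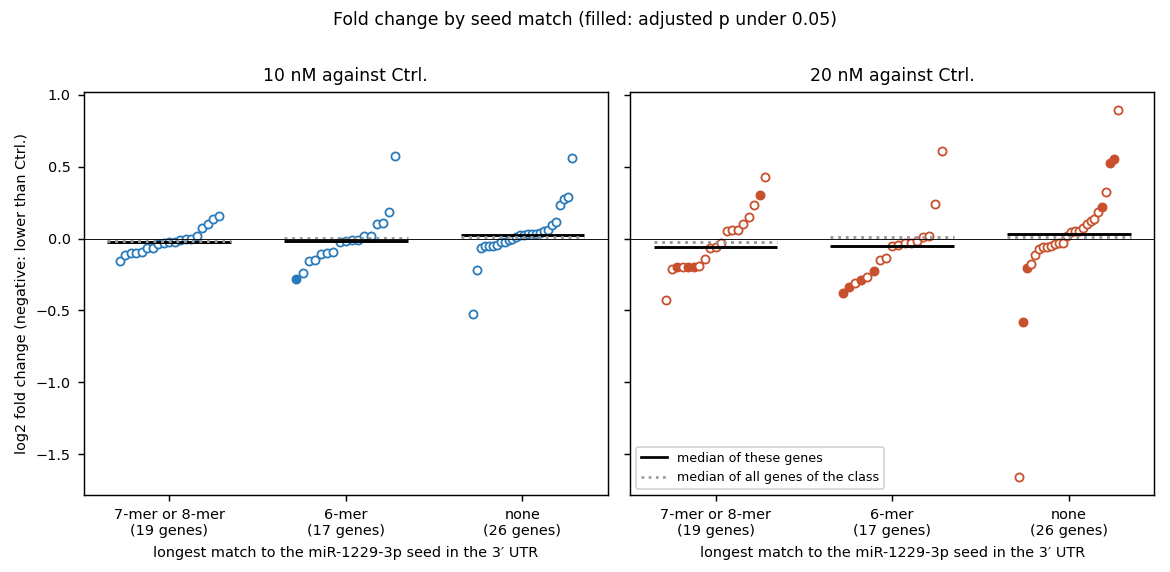
log2 fold change against Ctrl. of the 62 genes by their longest seed match in the 3′ UTR, at 10 nM and 20 nM; filled points have an adjusted p under 0.05, black lines are medians of these genes and dotted lines medians of all genes in the class. At 20 nM the medians are -0.06 with a 7-mer or 8-mer, -0.05 with the 6-mer and 0.03 with none.

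Other genes of the pathway were taken from 4 lists, whose counts stand beside 9.84% of all genes higher and 7.69% lower in the trend, and 7.8% and 6.08% at 20 nM. For genes of these lists only the fits with all libraries and surrogate variables are given, so how far their calls depend on 20 nM replicate 3 is not shown. Of 23 genes for SNARE recycling and Golgi or endosomal SNAREs outside the rule, 3 rose and 0 fell in the trend, and 3 rose and 1 fell at 20 nM. NAPG, an adaptor that helps take used SNARE complexes apart, had 21.5 to 21.8 CPM in Ctrl. and 27 to 29 at 20 nM, and rose in the trend by 0.40 ± 0.07 (edgeR adjusted p 0.0022). NSF, the enzyme that takes them apart, also rose, by 0.23 (0.0317). Of 28 active zone and priming genes 4 rose and 1 fell in the trend, and 3 rose and 1 fell at 20 nM. RPH3A, a Rab effector of vesicle priming, rose by 0.44 ± 0.07 (0.00142), with 79.5 to 94 CPM in Ctrl. and 111 to 124 at 20 nM, and the scaffold CASK fell by 0.23 on the log2 scale (0.0153).

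Of 20 vesicle membrane and transmitter transporter genes 5 rose and 1 fell, both in the trend and at 20 nM. SYNGR2, a vesicle protein of non-neuronal cells related to synaptophysin, had 52.5, 63.5 and 61.8 CPM in Ctrl. and 81.9, 93.8 and 108 at 20 nM, a trend of 0.55 ± 0.06 (edgeR adjusted p 8.7e-05). The vesicular acetylcholine transporter SLC18A3 had 24 to 24.5 CPM in Ctrl. and 30 to 38.5 at 20 nM, a trend of 0.40 ± 0.07 (0.00151). Of 29 vesicle endocytosis genes 3 rose and 1 fell in the trend, and 3 rose and 0 fell at 20 nM by edgeR. STON1 rose by 0.64 ± 0.14 (0.00563), with 10.1 and 11.1 CPM in 20 nM replicates 2 and 1 but 5.31 in replicate 3, below all Ctrl. libraries. The median trend of the 4 lists, in this order, was 0.05, 0.01, 0.12 and -0.01 on the log2 scale, beside -0.04 over the members and -0.00 over all genes.

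In some members most of the variation lay between replicate numbers. In SYP 92% and in SYT11 81.5% of the variation of log2 CPM over the 9 libraries lay between replicate numbers, against 1.74% and 14.9% between groups. In SYN2 the reverse held, with 85.8% between groups and 1.65% between numbers, and in SYT4 82.4% and 13.6%. Over the 62 members the median share was 32.7% between numbers and 28.1% between groups. With so few libraries, each factor takes some share even where it makes no difference. Medians over all genes were not taken. SYN2 and SYT4 were called genes, so their high share between groups partly follows from that choice.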

How the data were processed

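Polyadenylated RNA was measured in 9 libraries, grouped by the sample titles into Ctrl., 10 nM and 20 nM with 3 replicates each. The authors quantified reads with salmon on GRCh38.p13 (Ensembl 107), summed them to genes and filtered low genes, and the deposited table holds estimated counts, of which 88.8% are not whole. Deposited log2 values corrected for surrogate variables and the authors' tables of comparisons (fold changes and p-values) were not used. Counts were rounded and fitted with edgeR 4.0.16 in R 4.3.3 (TMM scaling, quasi-likelihood test over all 9 libraries, Benjamini-Hochberg adjustment over 14943 genes, threshold 0.05). filterByExpr removed 0 genes. Surrogate variables came from sva 3.50.0 on log2 CPM (prior count 2), their number from num.sv (seed 1, held between 1 and 3), giving 1 in the group fit and 2 in the trend fit. That number depends on the seed and on the order of the columns. CPM values carry the TMM scaling but no surrogate variable, so their ratio can differ from the fitted fold change. Standard errors were taken as the log2 fold change over the root of the F-statistic.

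Most same-numbered libraries deviated together. Across genes their deviations from the group means correlated at 0.177, 0.142 and 0.185 between Ctrl. and 10 nM. Between Ctrl. and 20 nM the values were 0.116, 0.107 and 0.116, and between 10 nM and 20 nM 0.174, 0.0288 and 0.176. Pairs of different number ran from -0.17 to 0.0321, the highest being 10 nM replicate 1 with 20 nM replicate 2. Deviations cancel within a group, so positive values for same numbers force lower ones for different numbers. The labels also set the libraries out in this way, since the sample titles share a number and the library names a letter. They do not say what a number stands for.

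Positions and 3′ UTRs of genes were read from GENCODE 44 (build GRCh38.p14), to which identifiers matched 14105 genes and symbols another 754, leaving 84 unmatched. Named genes are all members past the threshold in any comparison, the member of each role with the highest level per kb, and up to 3 genes of each pathway list by the trend. Further members fall outside this rule and were described after their values were seen. Among them are SYT2, SYT7, SYT11, SYT12, SYT15, SYT17, SYP, SNAP29, STX1A, STX5, STX6, STX16, STX17, RIMS1, STXBP2, STXBP4 and VAMP7. The members and all gene lists were chosen with earlier results of these data known. Some genes of the group and of the marker lists are counted but not reported by name, and 2 of them are left out of the labelled figures. The fits were also run on simulated counts, drawn for each library on its own. The simulation held no outlying library and no deviations shared by number. It therefore cannot show how the calls depend on these. Alternatives were another scaling, a minimum mean of 1 CPM, 0 or 3 surrogate variables, the replicate block, DESeq2 1.42.0, edgeR's likelihood-ratio test and leaving out each library.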

Additional observations from a re-analysis of the deposited data

How the results depend on the processing

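The number of the 62 genes called was 1 at 10 nM, 13 at 20 nM, 0 between 20 nM and 10 nM and 13 in the trend. Without surrogate variables it was 0, 2, 0 and 2. With the replicate block in place of surrogate variables it was 0, 8, 0 and 10. With 3 surrogate variables it was 2 at 10 nM (3.23% of members against 6.11% of all genes). At 20 nM it was then 24 (38.7% against 26.7%) and between the mimic groups 8 (12.9% against 9.38%). Between 20 nM and 10 nM, DESeq2's size factors gave 1 gene (1.61% against 2.78% of all genes) and a minimum mean of 1 CPM 2 (3.23% against 3.2%). The DESeq2 test gave 2 there (3.23% against 3.16%) and the likelihood-ratio test 3 (4.84% against 5.07%). Leaving out single libraries gave 0 to 2 genes at 10 nM, 5 to 23 at 20 nM, 0 to 9 between the mimic groups and 4 to 18 in the trend. Over all genes the shares called ran from 0.228% to 8.82%, 7.19% to 29.2%, 0.743% to 10% and 9.16% to 22.2%, in the same order. The 10 nM call was lost without Ctrl. replicates 1, 2 or 3 and without 10 nM replicates 1 or 3. The 20 nM count was 5 without 20 nM replicate 1 (8.06% against 8.84% of all genes) and 7 without replicate 2 (11.3% against 7.19%). It was 23 without replicate 3 (37.1% against 29.2%), and the trend count was 4 without 20 nM replicate 2 (6.45% against 9.16%). The fit without 20 nM replicate 3 used 2 surrogate variables in the group comparisons in place of 1, and with 1 kept it called 1 gene at 10 nM, 15 at 20 nM and 1 between the mimic groups. Reversed at 20 nM were STX10 (log2 fold change 0.0706 without surrogate variables, 0.0484 with the block) and UNC13A (0.0603 and 0.041). The cause was not tested. For the 27 gene results past the threshold, 118 of the alternative values kept the direction but not the call. Scaling by library totals with the number of surrogate variables kept, and 1 surrogate variable in each fit, were added after the data were seen and kept each count within 1.5 times its value. In the group comparisons both only repeat fits already counted, scaling by library totals and the fit with 1 surrogate variable. Members under 1 CPM in Ctrl. (STXBP2, SV2B, SYT2 and SYT12) are limited by depth.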

Other observations

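The least expressed members showed the widest spread. SYT12, a synaptotagmin of low level, had 0.742, 0.703 and 0.708 CPM in Ctrl. and 1.46, 1.16 and 0.567 at 20 nM, with the highest fitted log2 fold change of the group at 20 nM, 0.90 ± 0.39 (edgeR adjusted p 0.155). SYT17 had 2.4, 1.3 and 0.819 CPM in Ctrl. and 1.59, 2.71 and 1.01 at 20 nM, a log2 fold change of 0.61 ± 0.42 (edgeR adjusted p 0.385). SYT2 had 0.707, 0.811 and 1.01 CPM in Ctrl. and 0.795, 0.688 and 3.08 at 20 nM, with 20 nM replicate 3 far above the others. SYT2 shares 28.32% of its 31-base words with other genes, mostly with PPP1R12B on the opposite strand.

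Several members serve the Golgi, lysosomes or autophagosomes. STX6 and STX16, syntaxins of the Golgi network, had log2 fold changes of 0.02 ± 0.05 and -0.05 ± 0.06 at 20 nM (edgeR adjusted p 0.851 and 0.646), and STX5, of the early Golgi, 0.07 ± 0.07 (0.57). STX17 and SNAP29, which fuse autophagosomes with lysosomes, had -0.03 ± 0.06 (0.819) and 0.13 ± 0.06 (0.202). SNAP29 had 43, 41.7 and 47.4 CPM in Ctrl. and 48.7, 48.9 and 57.2 at 20 nM, without overlap, and with the replicate block its edgeR adjusted p was 0.0406. VAMP7, a vesicle SNARE of lysosomes, had 52.5, 52.7 and 58.4 CPM in Ctrl. and 51.5, 52.6 and 42.3 at 20 nM (-0.07 ± 0.07, edgeR adjusted p 0.577).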
